A study of Mus musculus with 6 samples.

Results

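A set of 10 genes that gate entry into the cell cycle was compared between control mouse gliomas and gliomas that relapsed after loss of their driving receptor. The members were 5 inhibitors of cyclin-dependent kinases (Cdkn1b, Cdkn1c, Cdkn2a, Cdkn2b and Cdkn2c), the 3 pocket proteins of the retinoblastoma family (Rb1, Rbl1 and Rbl2) and the D-type cyclins Ccnd1 and Ccnd2. The set was chosen by gene name, as 10 of the 19938 genes with a probe set that carries a single gene symbol. Earlier results of these data were known when it was chosen, so the choice was not blind. All 10 were measured, and each is given by its brightest such probe set. No dim member was dropped, because no filter on low values was applied.

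All tumours grew from glioma cells whose driver was a mutant form of EGFR, the receptor tyrosine kinase for epidermal growth factor. They were grown under the skin of the flanks of Nu/Nu mice. That host is athymic and lacks mature T cells, while its other stromal and myeloid cells remain. The 3 control gliomas are numbered 1, 2 and 4. The 3 relapsed gliomas, numbered 1, 2 and 3, had regrown upon extinction of the mutant receptor. Drinking water held doxycycline at 2 g/L for some of the mice, which the labels do not tie to either group, and tumours were taken at 2 cm3. The labels also do not give the form of the receptor, the state of the Cdkn2a locus in the cells, or whether each tumour came from a separate animal or cell clone. P-values therefore measure only the spread among these 6 samples, which may be technical.

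Progress from G1 into S phase turns on the phosphorylation of the pocket proteins. D-type cyclins, made in response to growth factor receptors, activate CDK4 and CDK6, which begin to phosphorylate RB and its relatives p107 (Rbl1) and p130 (Rbl2) and so release E2F transcription factors. INK4 proteins (Cdkn2a, Cdkn2b and Cdkn2c) bind CDK4 and CDK6 directly, whereas CIP/KIP proteins (p27 from Cdkn1b, p57 from Cdkn1c) bind cyclin-kinase complexes more broadly. In glioma this axis is a frequent site of mutation, most often by deletion of the Cdkn2a and Cdkn2b locus.

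Promoter sequence was available from RefSeq (GRCm38.p6) for 6 of the 10 members, in 8 windows, and the 250 bases before each start were searched. The windows of Rbl1 and Rbl2 are shown because Rbl2 was called in the comparison and its relative Rbl1 was not, and those of Cdkn2a because its 2 starts serve different proteins and share 1 probe set. Capitals mark an E2F motif, searched on both strands as TTTCCCGC, TTTGGCGC, TTTGCCGC or TTTCGCGC.
Rbl1, chr2:157204535-157204784, minus strand: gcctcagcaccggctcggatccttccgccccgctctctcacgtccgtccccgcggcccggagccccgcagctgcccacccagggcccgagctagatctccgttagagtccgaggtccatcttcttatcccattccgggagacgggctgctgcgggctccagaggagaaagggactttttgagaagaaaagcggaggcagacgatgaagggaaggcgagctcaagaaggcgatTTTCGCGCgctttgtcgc
Rbl2, chr8:91069807-91070056, plus strand: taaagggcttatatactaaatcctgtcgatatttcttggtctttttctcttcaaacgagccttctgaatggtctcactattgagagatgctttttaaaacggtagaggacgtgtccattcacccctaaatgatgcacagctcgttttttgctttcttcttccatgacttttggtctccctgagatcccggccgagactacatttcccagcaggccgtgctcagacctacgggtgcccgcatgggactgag
Cdkn2a, upstream start, chr4:89294620-89294869, minus strand: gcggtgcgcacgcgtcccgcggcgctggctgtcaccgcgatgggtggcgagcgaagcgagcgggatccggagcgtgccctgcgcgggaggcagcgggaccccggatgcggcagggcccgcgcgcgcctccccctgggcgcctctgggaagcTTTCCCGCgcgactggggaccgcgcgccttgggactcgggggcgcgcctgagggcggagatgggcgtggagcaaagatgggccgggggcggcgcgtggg
Cdkn2a, downstream start, chr4:89282193-89282442, minus strand: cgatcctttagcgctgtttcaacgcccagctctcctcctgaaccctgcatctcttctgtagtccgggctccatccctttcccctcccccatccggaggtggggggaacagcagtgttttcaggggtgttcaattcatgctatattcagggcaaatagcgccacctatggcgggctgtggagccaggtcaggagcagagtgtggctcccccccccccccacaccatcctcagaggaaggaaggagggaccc
The motif begins 18 bases before the Rbl1 start and 99 bases before the upstream Cdkn2a start. It was found in 2 of the 8 windows of members and in 1.86% of all 32851 windows. The FoxO word GTAAACA was in 0 of the 8 windows and in 3.17% of all. A cell cycle homology region (TTTGAA) was in the windows of Cdkn2b and Rbl2, and in 16.0% of all windows. A GC box (GGGCGG) was in 4 of the 8 and in 32.7% of all, and the cyclic AMP response element TGACGTCA in that of Cdkn2b and in 1.55% of all. No match of these motifs overlapped a match of another. A match is a description of these letters and not evidence of binding.

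Each array gave 1 log2 intensity per probe set. Array medians ran from 6.58 to 6.62 in controls and from 6.67 to 6.68 in relapsed tumours, with no overlap. The main fit left this offset in place, and median centring is given among the alternatives. Those medians are over all probe sets. Over genes the median difference was -0.02 in the main fit and -0.09 with median centring. All members lay above 5.65, the median of the 12146 probe sets with no listed gene, which serves as a rough floor. Cell types differed between the groups as well. Of 10 macrophage markers 8 rose, with a mean level of 8.88 to 9.27 in controls and 10.45 to 10.93 in relapsed tumours, and of 9 fibroblast markers 7 rose (9.07 to 9.56 against 10.52 to 11.35). Of 10 markers of the glioma lineage 3 fell (9.48 to 10.06 against 8.61 to 8.84), and all 10 lay above that floor in both groups. The 3 were Olig1 (-3.52), Olig2 (-3.54) and Bcan (-2.65). Means in that list were lower for 6 and higher for 4, among them Pdgfra and Gfap, each 0.64 higher and not called. Single arrays stood apart by host tissue: adipocyte markers averaged 9.35 in relapsed 1 against 5.93 to 6.41 elsewhere, muscle markers 9.76 in control 2 against 6.95 to 7.95, and keratinocyte markers 7.50 in relapsed 3 against 5.26 to 5.51. No adipocyte, muscle or keratinocyte marker passed the test between groups, with 0 of 5, 0 of 6 and 0 of 5 also at an unadjusted p under 0.05 in limma, which 26.6% of all genes reached. In bulk tumour RNA, fewer cells of a type and less RNA per cell cannot be told apart, and the part of these shifts in the results below was not tested.

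In relapsed tumours the pocket protein genes Rb1 and Rbl2 rose and the D-type cyclin gene Ccnd2 fell, while none of the 5 inhibitor genes passed the test. By limma with Benjamini-Hochberg adjustment over all genes, 3 of the 10 members were called at an adjusted p under 0.05, 2 higher and 1 lower. Of all genes 9.16% were called, 3.69% higher and 5.47% lower. That share includes dim genes. With the dimmer 50% of genes left out, 2 of 9 members rose and 1 fell, against 849 and 1171 of 9969 genes. Groups did not overlap for 6 members, 3 higher and 3 lower in relapsed tumours, against 30.8% of all genes, 13.0% higher and 17.8% lower. The median difference over the members was -0.03 on the log2 scale and that over all genes -0.02. The median size of the difference, regardless of sign, was 0.33 for the members and 0.16 for all genes, dim ones included. Because the members were chosen with earlier results known, an excess over all genes is only described here and was not tested.

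**Figure D1:**
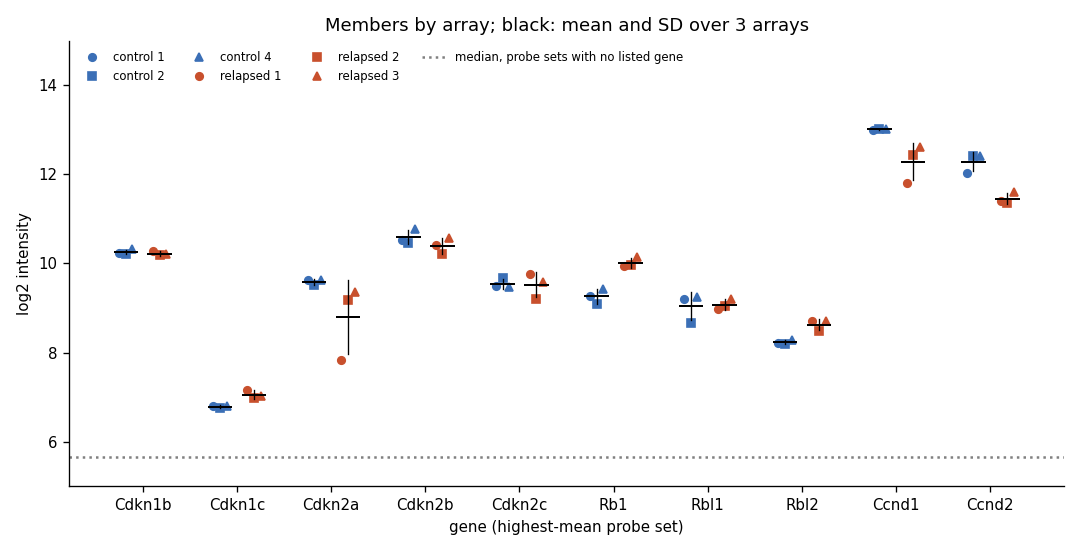
Log2 intensity (y axis) of each member (x axis) in the 3 control (blue) and 3 relapsed (red) gliomas; symbols mark the array, black bars the mean and SD over 3 arrays, and the dotted line the median of probe sets with no listed gene. Rb1 and Rbl2 are higher in every relapsed array, Ccnd1 and Ccnd2 lower in every relapsed array, and Cdkn2a is at 7.84 in relapsed 1.

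Rb1, the founding pocket protein, stood at 9.27, 9.09 and 9.42 in control 1, 2 and 4 and at 9.94, 9.97 and 10.13 in relapsed 1, 2 and 3. All relapsed tumours lay above all controls, and the lowest relapsed array exceeded the highest control by 0.52. Its mean rose from 9.26 ± 0.16 (SD, n = 3) to 10.01 ± 0.11, by 0.75 ± 0.11 (SE) on the log2 scale or 1.68-fold (limma adjusted p = 0.0200). With 1 array left out, Rb1 stayed called without control 2 (adjusted p = 0.0471) and without relapsed 1 (0.0488). It was not called without control 1 (0.0702), control 4 (0.0516), relapsed 2 (0.0649) or relapsed 3 (0.068). Calls over all genes fell in these 6 fits as well, from 735 higher and 1091 lower to 120 to 380 and 144 to 595. Over all 14 alternatives the Rb1 difference ran from 0.67 to 0.83, as it did in those 6 fits, and its adjusted p from 0.0122 to 0.393. The 0.393 came with the replicate number as a block, a fit with 1 residual degree of freedom that called 0 of all genes. That fit also gave the top of each range of adjusted p over the alternatives below.

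Rbl2 encodes p130, the pocket protein that prevails in resting cells and joins the MuvB proteins in the DREAM repressor complex. Its levels were 8.22, 8.20 and 8.29 in control 1, 2 and 4 and 8.70, 8.48 and 8.71 in relapsed 1, 2 and 3. The controls lay within 0.09 of each other, and all relapsed tumours were above them. Rbl2 rose by 0.39 ± 0.08 (SE), or 1.31-fold, from 8.24 ± 0.05 (SD, n = 3) to 8.63 ± 0.13; its limma adjusted p of 0.0467 was just inside the threshold. The call held without relapsed 2 (adjusted p = 0.0460) and was lost without control 1, 2 or 4 (0.134, 0.118 and 0.112) and without relapsed 1 or 3 (0.101 and 0.130). It was also lost with median centring (0.0694), where the difference was 0.32, and with all probe sets tested (0.0654). An intensity trend (0.0734) and robust variances (0.0506) lost it too, while the alternatives ran from 0.0373 to 0.488. With 1 array left out the Rbl2 difference ran from 0.35 to 0.47.

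Rbl1, which encodes p107, the pocket protein that E2F itself induces in cycling cells, was at 9.20, 8.67 and 9.25 in control 1, 2 and 4. The relapsed values of 8.97, 9.04 and 9.20 fell inside that range. The low control was control 2, the array with high muscle markers, which was also lowest for Rb1, Rbl2 and Cdkn1c. A link to those markers was not tested. The difference was 0.03 (95% interval -0.40 to 0.47, limma adjusted p = 0.931). It was -0.15 without control 2, -0.03 without relapsed 3 and -0.04 with median centring. Whether the changes of Rb1, Rbl2 and Rbl1 differ from each other was not tested.

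Both D-type cyclin members had lower means in relapsed tumours, and 1 of them passed the test. Ccnd2, the D-type cyclin of neural progenitors among other cells, was at 12.04, 12.41 and 12.41 in control 1, 2 and 4 and at 11.40, 11.35 and 11.60 in relapsed 1, 2 and 3. The groups were apart by 0.44, and control 1 was the lowest control. Ccnd2 fell by 0.84 ± 0.13 (SE) on the log2 scale, from 12.29 ± 0.22 (SD, n = 3) to 11.45 ± 0.13, a 1.79-fold change with an adjusted p of 0.0250 in limma. It kept the call without control 1 (adjusted p = 0.0374). It lost it without control 2 (0.0727), control 4 (0.0879), relapsed 1 (0.0691), relapsed 2 (0.0818) or relapsed 3 (0.0646). The adjusted p over its 14 alternatives ran from 0.0132 to 0.417. With 1 array left out the Ccnd2 difference ran from -0.96 to -0.77.

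Ccnd1, the cyclin D1 gene and a classic target of mitogen signalling, was at 13.00, 13.01 and 13.02 in control 1, 2 and 4, a span of 0.02. Its relapsed values were 11.81, 12.43 and 12.62 in relapsed 1, 2 and 3, a span of 0.80. All relapsed tumours were thus below all controls. Relapsed 1, the array with high adipocyte markers, was lowest here and for Cdkn2a, and a link to those markers was not tested. The difference of -0.72 ± 0.21 (SE), with a 95% interval of -1.25 to -0.19, did not pass over all genes (adjusted p = 0.0994 in limma). Without relapsed 1 the difference was smaller, at -0.48, and passed with an adjusted p of 0.0462, and its alternatives reached 0.447. The third D-type cyclin gene, Ccnd3, which was not a member, had a mean of 10.44 ± 0.33 (SD) in controls and 9.79 ± 0.35 in relapsed tumours, with no overlap and an adjusted p of 0.162 in limma.

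**Figure D2:**
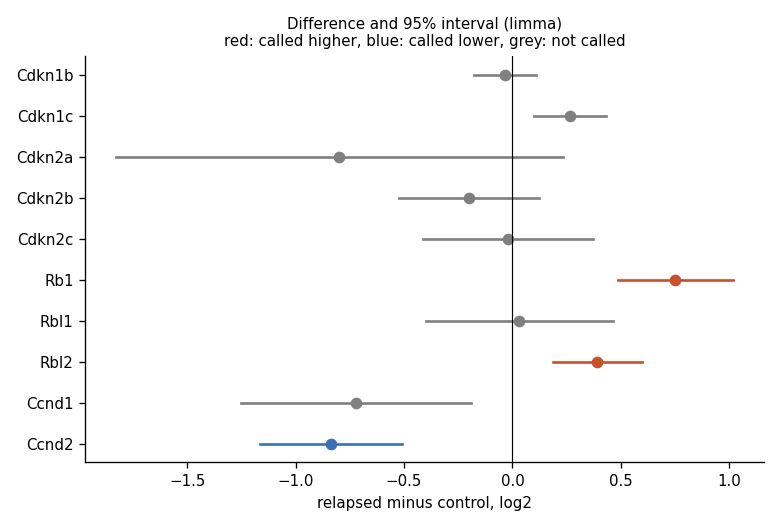
Difference of the mean log2 intensity, relapsed minus control (x axis), for each member (y axis) with its 95% interval from limma; red marks genes called higher, blue called lower and grey not called. Rb1 and Rbl2 lie to the right of 0 and Ccnd2 to the left, and the widest interval is that of Cdkn2a, from -1.83 to 0.23.

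Among the INK4 genes, Cdkn2a encodes p16INK4a and, from its upstream first exon, p19ARF, which restrains MDM2 and so protects p53. Its probe set cites transcripts of both kinds and cannot separate them, and its mean lay above 88.7% of probe sets with no listed gene. It was at 9.62, 9.51 and 9.64 in control 1, 2 and 4, and at 7.84, 9.17 and 9.36 in relapsed 1, 2 and 3. Controls agreed within 0.13, while the relapsed tumours spanned 1.52 and all lay below the controls. The difference of -0.80 ± 0.41 (SE) had an adjusted p of 0.293 in limma. It was -0.32 without relapsed 1, where the adjusted p was 0.110, the lowest of its alternatives, which reached 0.590.

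Cdkn2b, the neighbouring gene for the TGF-beta-inducible inhibitor p15, overlapped between groups, at 10.53, 10.47 and 10.78 in control 1, 2 and 4 and 10.40, 10.20 and 10.57 in relapsed 1, 2 and 3. Its difference was -0.20 (95% interval -0.52 to 0.12, limma adjusted p = 0.399). In relapsed 1 the difference from the control mean was -1.75 for Cdkn2a and -0.19 for Cdkn2b. Mtap, the metabolic enzyme gene next to Cdkn2a on its other side in the RefSeq gene order, differed by 0.16 ± 0.13 (adjusted p = 0.508). Of 5 genes near the locus 1 was called, Dmrta1, a DM-domain transcription factor gene next to Cdkn2b, which fell by 1.22 ± 0.18 (adjusted p = 0.0217 in limma). Its values were 7.79, 8.14 and 7.90 in control 1, 2 and 4 and 6.58, 6.51 and 7.08 in relapsed 1, 2 and 3. That call held without relapsed 3 (adjusted p = 0.0400) and was lost without control 1, 2 or 4 (0.0645, 0.0644 and 0.0803) and without relapsed 1 or 2 (0.0633 and 0.0695), while the alternatives ran from 0.0155 to 0.393.

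Cdkn2c, which encodes p18INK4c, was at 9.49, 9.67 and 9.47 in control 1, 2 and 4 and at 9.76, 9.21 and 9.59 in relapsed 1, 2 and 3. Relapsed tumours held both the highest and the lowest value, so the groups overlapped fully. The difference was -0.02 with a 95% interval of -0.41 to 0.37 (adjusted p = 0.952 in limma), and it was 0.04 without control 2 and 0.13 without relapsed 2.

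Cdkn1b, the p27 gene, is repressed when growth factor signalling is active and is read here by a pair of probe sets that disagreed. The brighter one, which stands for the gene, was at 10.23, 10.22 and 10.31 in control 1, 2 and 4 and at 10.28, 10.18 and 10.20 in relapsed 1, 2 and 3. These values overlapped, and the difference was -0.03 (95% interval -0.18 to 0.11, limma adjusted p = 0.756). The dimmer probe set was at 7.84, 7.28 and 7.82 in the controls and at 8.37, 8.45 and 8.69 in the relapsed tumours, with no overlap. No-overlap patterns were found for 26.6% of all probe sets. Its difference of 0.86 ± 0.18 (SE) had an adjusted p of 0.0642 in limma over all 35556 probe sets, of which 4.87% were called.

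Within each array, the dimmer minus the brighter Cdkn1b probe set was -2.61 ± 0.29 (SD, n = 3) in controls and -1.72 ± 0.20 in relapsed tumours. That difference of 0.89 gave p = 0.1 in a two-sided exact permutation test, the smallest p that 3 against 3 arrays allow. Both probe sets cite the same RefSeq transcript of the gene, and each also cites other sequence records that its partner does not. With the mean of both, the Cdkn1b difference was 0.41 (adjusted p = 0.0693, where the alternatives ran from 0.0693 to 1), so its sign depends on how the probe sets are combined. Which of them follows the p27 messenger RNA was not tested.

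**Figure D3:**
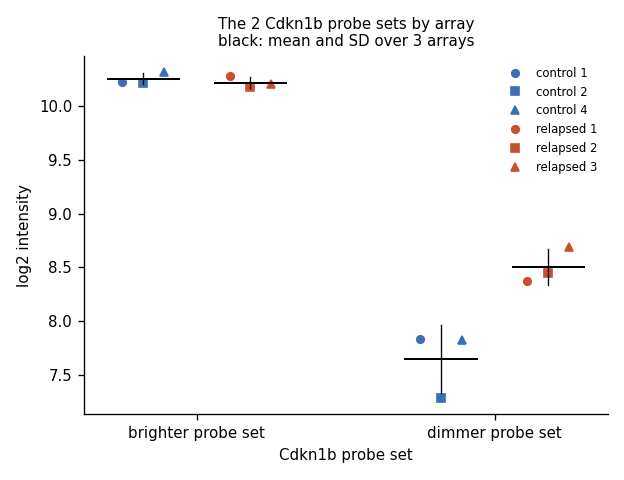
Log2 intensity (y axis) of the brighter and the dimmer Cdkn1b probe set (x axis) in each control (blue) and relapsed (red) array, with the mean and SD over 3 arrays in black. The brighter probe set overlaps between groups near 10.2, while the dimmer one is higher in every relapsed array.

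Cdkn1c encodes p57, the product of an imprinted gene that holds back growth in embryonic tissues. Its probe set averaged above 71.5% of those with no listed gene and was at 6.79, 6.76 and 6.81 in control 1, 2 and 4 and 7.16, 6.97 and 7.04 in relapsed 1, 2 and 3. Every relapsed tumour was higher, but only by 0.27 ± 0.07 (SE) on average, with an adjusted p of 0.0690 in limma. It was the fourth member by p-value. Of 7 genes measured in its imprinted domain none was called in limma, and 0 had an unadjusted p under 0.05, against 26.6% of all genes. Those with the smallest p were Tssc4 at -0.27 ± 0.13 and Cd81, a tetraspanin gene, at -0.20 ± 0.10 (adjusted p of 0.278 and 0.289). Of 8 other imprinted growth genes none was called either, with 2 at an unadjusted p under 0.05, a share near the 26.6% of all genes. These were Dlk1, a Notch-related ligand, at -0.36 ± 0.10 and Peg3, a zinc finger gene, at -0.44 ± 0.13 (adjusted p of 0.0820 and 0.0926).

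**Figure D4:**
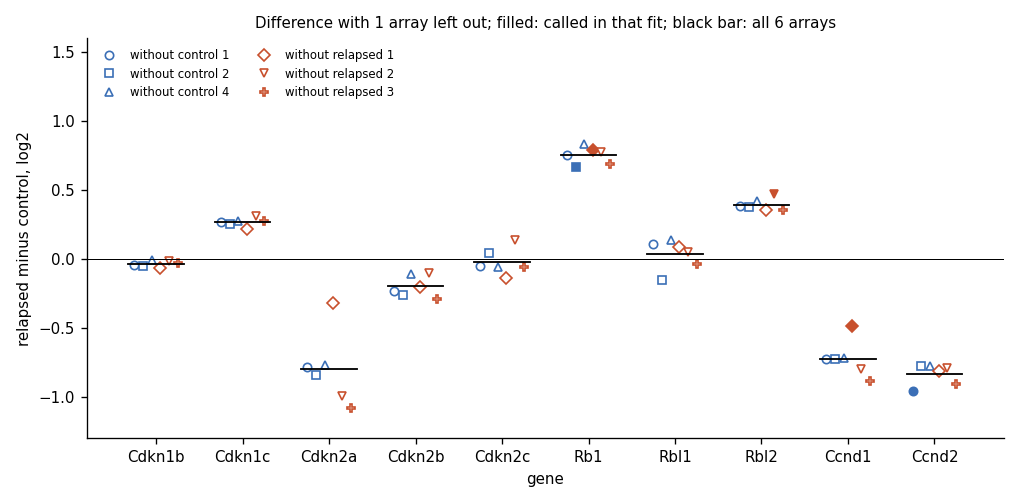
Relapsed minus control difference in log2 units (y axis) for each member (x axis) in 6 fits that each leave out 1 array; blue symbols leave out a control and red ones a relapsed array, filled symbols passed the test, and black bars show the fit on all 6 arrays. Rb1, Rbl2, Ccnd1, Ccnd2, Cdkn1c, Cdkn2a, Cdkn2b and Cdkn1b keep their sign, while Rbl1 and Cdkn2c cross 0.

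The spread among members was uneven. In controls the SD over 3 arrays ran from 0.01 for Ccnd1 to 0.32 for Rbl1, and in relapsed tumours from 0.05 for Cdkn1b to 0.83 for Cdkn2a. Control 4 held the highest value of 6 members (Cdkn1b, Cdkn2a, Cdkn2b, Rbl1, Ccnd1 and Ccnd2), and control 2 the lowest of Cdkn1c, Rb1, Rbl1 and Rbl2. Relapsed 1 held the lowest value of Cdkn2a and Ccnd1, and relapsed 2 that of Cdkn1b, Cdkn2b, Cdkn2c and Ccnd2.

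Other genes of the pathway were counted by list. Of 115 further genes in 13 lists, 108 were measured, and 2 rose and 7 fell, which is 8.33% called against 9.16% of all genes. The share over all genes includes dim ones. With the dimmer 50% of genes left out, 3 of 95 pathway genes rose and 8 fell, against 849 and 1171 of 9969 genes. In that fit 11 of the 95 were higher and 23 lower at an unadjusted p under 0.05 in limma. Of the 9969 genes 1627 were higher and 2245 lower at that p. The 26.6% of all genes given for that p elsewhere includes dim ones. The median difference of the 108 was -0.06. Cdkn1a, the p21 gene, had no probe set of its own: the probe set that lists it also lists 4930567H12Rik, so its values cannot be assigned to either gene. That shared probe set was lower in every relapsed array than in any control, by 0.67 ± 0.18 (SE) on average, with an adjusted p of 0.105 in limma over all probe sets. Cdkn2d, the p19INK4d gene, differed by -0.12 ± 0.10 (adjusted p = 0.495).

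Of Cdk4 and Cdk6, the kinase partners of the D cyclins, 1 passed the test. Cdk6, the catalytic partner that with Cdk4 phosphorylates pocket proteins, rose by 1.33 ± 0.17 (SE), or 2.52-fold (limma adjusted p = 0.0177). It was at 9.61, 9.26 and 9.83 in control 1, 2 and 4 and at 10.68, 11.04 and 10.98 in relapsed 1, 2 and 3, well apart. Its call was lost without control 1 (adjusted p = 0.0622), relapsed 2 (0.0627) or relapsed 3 (0.0678), while the alternatives ran from 0.00716 to 0.402. Cdk4 was 0.20 ± 0.08 lower, with no overlap and an adjusted p of 0.160, and the difference between the changes of Cdk6 and Cdk4 was not tested. Of 6 measured genes in this list 2 rose, the other being Ccnh, the cyclin of the CDK-activating kinase, at 0.51 ± 0.08 (adjusted p = 0.0214). An unadjusted p under 0.05 in limma was reached by 5 of the 6, against 26.6% of all genes, with 4 means higher and 2 lower. Ccnh was not called in any of the 6 fits without 1 array, with adjusted p from 0.0511 to 0.0748.

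Of 9 genes for CDK2, CDK1, their cyclins and the CDC25 phosphatases 1 fell, Ccne1, which encodes cyclin E1, an E2F target that activates CDK2. It fell by 0.76 ± 0.12 (SE), from 9.39, 9.67 and 9.50 in control 1, 2 and 4 to 8.97, 8.67 and 8.64 in relapsed 1, 2 and 3 (adjusted p = 0.0266 in limma). That call held without relapsed 1 (0.0347) and was lost without any other array, with adjusted p from 0.0665 to 0.0925, while the alternatives ran from 0.0155 to 0.480. Cdk2 was 0.59 ± 0.16 lower (adjusted p = 0.0833), and Ccne2 0.32 ± 0.11 higher (adjusted p = 0.142). In this list 4 of 9 genes had an unadjusted p under 0.05 in limma, against 26.6% of all genes, dim ones included. Means were higher for 2 and lower for 7.

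None of the 10 E2F and DP factor genes was called in limma, and 0 had an unadjusted p under 0.05, against 26.6% of all genes. E2f1, an activating E2F, differed by -0.48 ± 0.21 and E2f2 by -0.23 ± 0.10 (adjusted p of 0.224 and 0.214). Among 7 genes of the MuvB core and its partners Foxm1, the G2 and mitosis factor, fell by 0.37 ± 0.07 (adjusted p = 0.0426). The Foxm1 call was lost in all 6 fits without 1 array (adjusted p from 0.0671 to 0.121).

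Of 16 measured S phase and proliferation genes, 2 fell and none rose, with a median difference of -0.27. An unadjusted p under 0.05 in limma was reached by 7 of the 16, against 26.6% of all genes, dim ones included. Means were higher for 4 and lower for 12. Mcm3, a subunit of the replicative helicase, fell by 0.71 ± 0.08, from 9.67, 9.70 and 9.47 in control 1, 2 and 4 to 8.91, 8.91 and 8.90 in relapsed 1, 2 and 3 (adjusted p = 0.0131 in limma). The relapsed values were nearly equal. Its call was lost without relapsed 2 (0.0501) or relapsed 3 (0.0551), while the alternatives ran from 0.00940 to 0.393. Cdt1, which loads that helicase, fell by 1.07 ± 0.22 (adjusted p = 0.0428), a call that held without relapsed 1 (0.0235) but in no other fit without 1 array (0.108 to 0.130), while the alternatives ran from 0.0190 to 0.454. Mki67, the Ki-67 proliferation marker, differed by 0.07 ± 0.10 (adjusted p = 0.704).

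**Figure D5:**
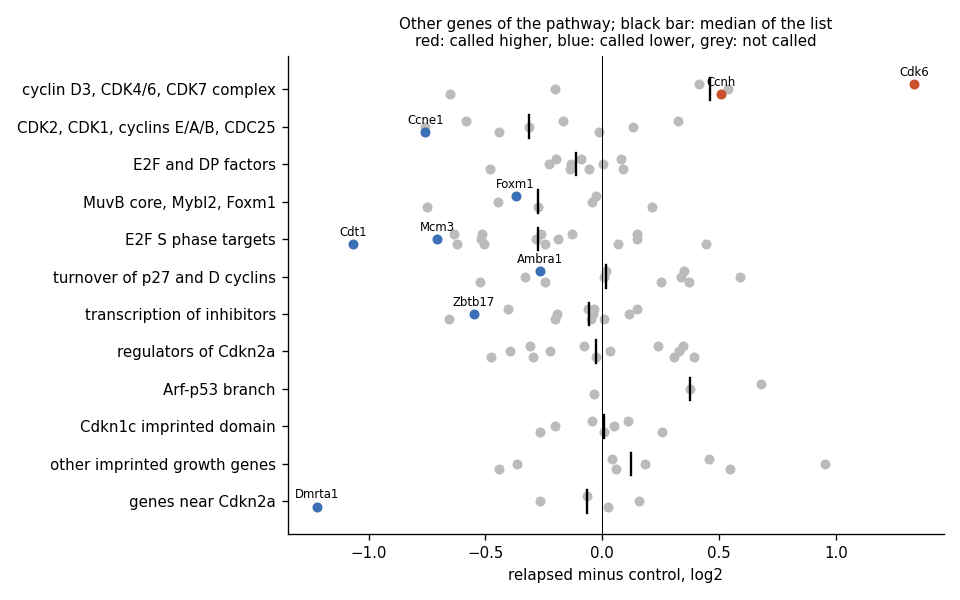
Relapsed minus control difference in log2 units (x axis) of each other measured gene of the pathway except Cdkn2d, by list (y axis); red marks genes called higher, blue called lower, grey not called, and black bars the list's median. Cdk6 and Ccnh are the genes called higher, and Cdt1, Mcm3, Ccne1, Foxm1, Ambra1, Zbtb17 and Dmrta1 those called lower.

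Genes that set the level of the members were read next. Among 11 genes for the turnover of p27 and D cyclins, 8 had an unadjusted p under 0.05 in limma, against 26.6% of all genes. Means were higher for 7 and lower for 4. After adjustment 1 was called, Ambra1, a ubiquitin ligase adaptor that targets D-type cyclins, which fell by 0.27 ± 0.06 (adjusted p = 0.0498 in limma). That call was lost without any 1 array (adjusted p from 0.0774 to 0.137). Skp2, the F-box protein that marks p27 for destruction, differed by 0.01 ± 0.07 (adjusted p = 0.920), and its cofactor Cks1b by 0.34 ± 0.09 (adjusted p = 0.0734). Of 12 transcriptional regulators of the inhibitors 1 fell, Zbtb17, which encodes Miz1, by 0.55 ± 0.09 (adjusted p = 0.0273). The call of Zbtb17 held without relapsed 1 (0.0451) and was lost without any other array (0.0515 to 0.0893), while the alternatives ran from 0.0178 to 0.418. Foxo1 and Foxo3, activators of Cdkn1b, differed by 0.15 ± 0.10 and 0.12 ± 0.13 (adjusted p of 0.418 and 0.624).

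Of 13 regulators of Cdkn2a none was called in limma, with 3 at an unadjusted p under 0.05, a share near the 26.6% of all genes. Kdm6b and Ezh2, which remove and add the repressive H3K27 methyl mark, had the smallest p and were both lower, by 0.39 ± 0.09 and 0.48 ± 0.12 (adjusted p of 0.0531 and 0.0757). Kdm6b passed with quantile normalization (0.0499) and median centring (0.0372), where its alternatives reached 0.425, and Ezh2 with median centring (0.0385) and without control 2 (0.0359), where they reached 0.489. Of 3 genes of the Arf and p53 branch none was called in limma, with 2 at an unadjusted p under 0.05, against 26.6% of all genes. These were Npm1, the nucleolar partner of ARF, at 0.68 ± 0.15 and Mdm4, a p53 inhibitor, at 0.37 ± 0.15 (adjusted p of 0.0511 and 0.180). Npm1 passed with the dimmer 50% of genes left out (0.0299) and with quantile normalization (0.0436), where its alternatives reached 0.510. Trp53 itself was not analysed here.

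Likeness of profile was measured for the called members as the root mean square distance between log2 values over the 6 arrays, each gene centred on its own mean. Among the 19938 genes, those with clone or predicted names, such as Rik, Gm and LOC, were left out of this ranking. For Rb1 the nearest genes of the rest were Zfp930 and Crbn, both at 0.028. For Rbl2 they were Mpv17l at 0.026 and Zfp715 at 0.035, and for Ccnd2 Abcc12 at 0.051 and Abcc4 at 0.085. These distances are smaller than 0.14, the median SD between arrays of a group over all genes. They were picked as the smallest of many, so that comparison carries no weight, and they describe these 6 arrays only.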

How the data were processed

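Total RNA from 6 tumours was hybridised to Affymetrix arrays, 1 array per tumour, from 5 ug of RNA per the labels' protocols. The deposited table holds log2 intensities for 35556 probe sets, normalized between arrays by the authors. The log2 scale was read from the values (1.93 to 14.24). Per the submitters' processing notes the affy package was used; no version, background correction, normalization or summary method is given in the sources used here. Of the probe sets 21789 had 1 gene symbol, 1621 several and 12146 none. The brightest by mean stood for each gene. limma 3.58.1 (R 4.3.3; lmFit, eBayes) fitted relapsed against control, with 4 residual and 1.53 prior degrees of freedom, two-sided p-values and Benjamini-Hochberg adjustment over 19938 genes. The fit was first tested on simulated data. The number of arrays limits the precision. Members and lists were chosen with earlier results of these data known. Genes named from a list were up to 4 called ones with the largest change, or the 2 with the smallest p; further list genes, among them Ccnd3, Cdk2, Cdk4, Ccne2, Mki67, Skp2, Cks1b, Foxo1, Foxo3 and Mtap, were chosen after their values were seen. Older symbols were matched through RefSeq. Alternatives changed the filter, scaling, probe set rule, variance model and arrays used.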

Additional observations from a re-analysis of the deposited data

How the results depend on the processing

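With 2 members called higher and 1 lower, the count higher was 1 with median centring, with all probe sets tested, with an intensity trend and with robust variances, and the count lower was 1 in all of these. With 1 array left out, 0 to 1 members were called higher and 0 to 1 lower. For the other pathway genes (2 higher, 7 lower) those fits gave 0 to 1 higher and 0 to 5 lower, median centring 16 lower and all probe sets 4 lower. Over all genes (735 higher, 1091 lower) median centring gave 696 and 1687, so 29.2% of calls were higher in place of 40.3%, all probe sets gave 516 and 716, and leaving out 1 array gave 120 to 380 and 144 to 595. The groups share the numbers 1 and 2, and the labels do not say whether these pair the tumours. Same-numbered arrays did not deviate together (correlations across genes of -0.34 and -0.25). For differently numbered arrays of the 2 groups the correlations ran from -0.19 to 0.35. Because single arrays also stood apart by host tissue, these correlations cannot settle whether the tumours are paired. With the replicate number as a block, limma had 1 residual degree of freedom and called 0 members and 0 other pathway genes in either direction, with 1 member higher and 2 lower at an unadjusted p under 0.05, and 0 of all genes, with 1095 higher and 1104 lower at that p. The Cdkn1b difference was 0.0035 under the block and 0.41 with the mean of its probe sets. That of Rbl1 was -0.042 with median centring and ran from -0.15 to 0.14 with 1 array left out, and that of Cdkn2c from -0.14 to 0.13. Causes were not tested. The number of arrays limits what can be told apart: the 95% interval of Cdkn2a spans -1.83 to 0.23. The filter on dim genes, quantile normalization and the mean of a gene's probe sets gave 2 members higher and 1 lower; that filter leaves out Cdkn1c and Dmrta1.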
